A study of Mus musculus with 9 samples.

Results

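MicroRNA genes on the lists of a study of T-bet in mouse T helper 1 (Th1) cells were taken as every symbol that starts with Mir and a digit or with Mirlet. The rule found 119 symbols among 7189 symbols on the 5 lists. Of these, 2 were on the lists of genes with changed expression, 33 were the closest gene of a T-bet peak, 65 of an H3K4me1 region and 50 of an H3K27me3 region. Together they were the closest gene of 210 of 14844 listed regions. T-bet, encoded by Tbx21, is the transcription factor that directs Th1 cells, and both histone marks describe chromatin: H3K4me1 is found at enhancers, and H3K27me3 is set by Polycomb proteins at silent genes. Naive CD4+ T cells of C57BL/6 mice with the T-bet-ZsGreen reporter were cultured in Th1 conditions (IL-2, IL-12 and anti-IL-4) with irradiated splenocytes depleted of T cells, and reporter-positive cells were sorted and expanded. All groups carried the reporter and differed in genotype, which was wild type or Tbx21-/-. RNA-seq had 2 libraries per genotype, H3K4me1 and H3K27me3 ChIP-seq had 1 library per genotype, and T-bet ChIP-seq had 1 wild type library, in all 9 samples. Chromatin was sheared by sonication for T-bet and cut by micrococcal nuclease for the histone marks.

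A microRNA is a short RNA cut from a hairpin in a longer transcript. Its seed, bases 2 to 8 from the 5′ end, pairs with target messenger RNAs, which are then translated less or degraded. Many microRNA genes lie inside introns of other genes or in clusters that share 1 transcript. In T cells, miR-155 promotes effector responses, miR-146a restrains NF-kappaB signalling, miR-181a sets the sensitivity of the T cell receptor, the miR-17 to miR-92 cluster promotes expansion, and miR-29 represses Tbx21 and Ifng in the mouse. Mouse miR-148a has been described as induced by T-bet in Th1 cells and as acting on the transcript of the death protein Bim.

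Mature sequences were taken from RefSeq (build GRCm38.p6) for 103 of the 119 members. Some members were left out of the sequence step, as stated with the seed counts below, so RefSeq may hold sequences for more members. The following sequences are those the results turn on, with the seed in capitals. They are ordered so that members with a shared seed stand together. For Mir147 only miR-147-5p was found, so any other mature sequence of that gene is not shown. The let-7, miR-181, miR-29 and miR-148 groups each share 1 seed among several members. The sequence of miR-101c is that of miR-101a begun 1 base later and ended 1 base earlier, so their seeds as defined here are not the same.

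let-7a-5p: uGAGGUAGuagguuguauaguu
let-7d-5p: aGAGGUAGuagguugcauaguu
let-7g-5p: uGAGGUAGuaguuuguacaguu
let-7i-5p: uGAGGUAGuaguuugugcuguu
miR-181a-5p: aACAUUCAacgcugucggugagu
miR-181b-5p: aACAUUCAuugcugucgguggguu
miR-181c-5p: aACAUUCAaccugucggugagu
miR-29a-3p: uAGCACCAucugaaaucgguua
miR-29b-3p: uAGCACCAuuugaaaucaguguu
miR-148a-3p: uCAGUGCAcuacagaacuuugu
miR-152-3p: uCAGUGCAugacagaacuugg
miR-101a-3p: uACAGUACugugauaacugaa
miR-101c: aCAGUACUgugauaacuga
miR-142a-3p: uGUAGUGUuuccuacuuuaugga
miR-142a-5p: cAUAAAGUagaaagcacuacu
miR-17-5p: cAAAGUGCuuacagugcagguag
miR-146a-5p: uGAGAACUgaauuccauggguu
miR-155-5p: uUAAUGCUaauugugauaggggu
miR-147-5p: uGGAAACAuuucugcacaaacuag
miR-1962: aGAGGCUGgcacugggacacau

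A short list of cell type markers was looked up on the expression lists. Of 8 Th1 markers, 7 were on the list of genes higher in wild type cells (Stat4 was on neither list), and of 4 Th2 markers 3 were on the list of genes higher in Tbx21-/- cells. Of 3 myeloid genes (Lyz2, Itgam and Adgre1, the last also searched as Emr1) 0 were on either list, of 3 B cell markers Cd79a was higher in Tbx21-/- cells, and of 4 markers for NK or CD8 lymphocytes Cd8a was higher in wild type cells. In the authors' deposited table, Tbx21 itself had 271 FPKM with an intact gene and 124 FPKM in Tbx21-/- cells, so transcript from the locus was still counted there. FPKM is a fragment count scaled to transcript length and library size, and the table holds 1 value per genotype with no spread between the duplicates. The expression lists hold changed genes, so a marker that is on neither may still be expressed. A marker on one of them shows a difference between the genotypes and does not check the cell type of either culture. Tbx21, the gene by which the genotypes differ, is itself among the 7 Th1 markers. The part of other cell types in the results below was not tested.

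2 microRNA symbols were on the expression lists, 1 in each direction, and each lies in RefSeq within a protein-coding gene that is on the same list. In the authors' deposited table, Mir147 went from 276 FPKM in wild type to 73.6 FPKM in Tbx21-/- cells, which that table gives as a log2 ratio of -1.87 (Tbx21-/- over wild type). It lies within AA467197 (also called Nmes1), which in the authors' deposited table went from 218 to 81.2 FPKM (log2 ratio -1.41). By size of change Mir147 ranked 78 and AA467197 ranked 127 of 219 genes on that list, whose median log2 ratio was -1.59. Mir147 codes for a microRNA known to be induced by Toll-like receptor signals in mouse macrophages.

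Mir5107 differed in the other direction. The authors' deposited table has 15.3 FPKM for it in wild type against 57.4 FPKM in Tbx21-/- cells and a log2 ratio of 1.76. It lies within Cd74, the invariant chain of MHC class II, which in the authors' deposited table went from 17.3 to 77.4 FPKM (log2 ratio 2.09). Mir5107 ranked 72 and Cd74 ranked 53 of 211 genes on that list, whose median was 1.44. The libraries followed an mRNA protocol and did not measure mature microRNAs, and fragments of a microRNA gene and of the gene around it cannot be told apart in these values. Mir5107 was the closest gene of 0 listed regions.

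**Figure D1:**
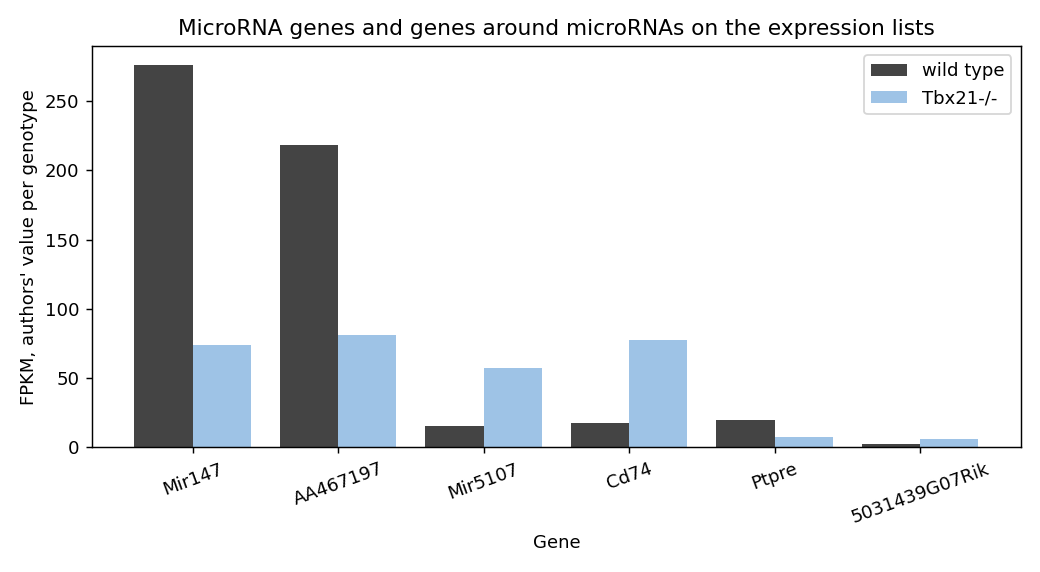
Expression of the microRNA symbols and of genes that contain a member microRNA, for those on the expression lists. The vertical axis is FPKM, the bars are the authors' 1 value for wild type (dark) and Tbx21-/- (light) cells, and there are no error bars because the duplicates were combined; Mir147 falls from 276 to 73.6 and AA467197 from 218 to 81.2, while Mir5107 and Cd74 are higher in Tbx21-/- cells.

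The genes around the other members were looked up in the same way. RefSeq entries were found for 114 of the 119 symbols on the same chromosome as their regions, and 76 of these, or 66.7%, lay within or touched a protein-coding gene, against 67.8% of all 1228 RefSeq microRNA genes. Of the 74 distinct surrounding genes 4 were on an expression list, where 1.90% of all RefSeq protein-coding genes were. The 74 were looked up by current symbol only and the share over all genes also by synonym, so the count of 4 may be too low. Nothing is read from that count, since AA467197 and Cd74 share fragments with members that are themselves on these lists, and Mir5107 is a member only through its list. The other 2 were Ptpre around Mir1962 and 5031439G07Rik around Mir1249. Ptpre, a receptor-type protein tyrosine phosphatase, went from 19.9 to 7.80 FPKM (log2 ratio -1.34) in the authors' deposited table. 5031439G07Rik went from 2.65 to 6.25 FPKM (log2 ratio 1.24) in the authors' deposited table.

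The regions closest to microRNA genes were a small and similar share of each region list. They were 46 of 3226 T-bet peaks, or 1.43% (exact 95% interval 1.05 to 1.90), 100 of 7669 H3K4me1 regions, or 1.3% (1.06 to 1.58), and 64 of 3949 H3K27me3 regions, or 1.62% (1.25 to 2.06). The intervals are Clopper-Pearson and cover counting error only. As a share of genes, 2.52% of RefSeq microRNA genes were the closest gene of a T-bet peak, 5.21% of an H3K4me1 region and 3.75% of an H3K27me3 region. The same shares over RefSeq protein-coding genes were 10.4%, 17.2% and 11.8%. RefSeq also holds microRNA genes that the authors' annotation may lack, so the shares of microRNA genes may be too low. Most members had a single region: 27 of 33 on the T-bet list, 49 of 65 on the H3K4me1 list and 39 of 50 on the H3K27me3 list.

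**Figure D2:**
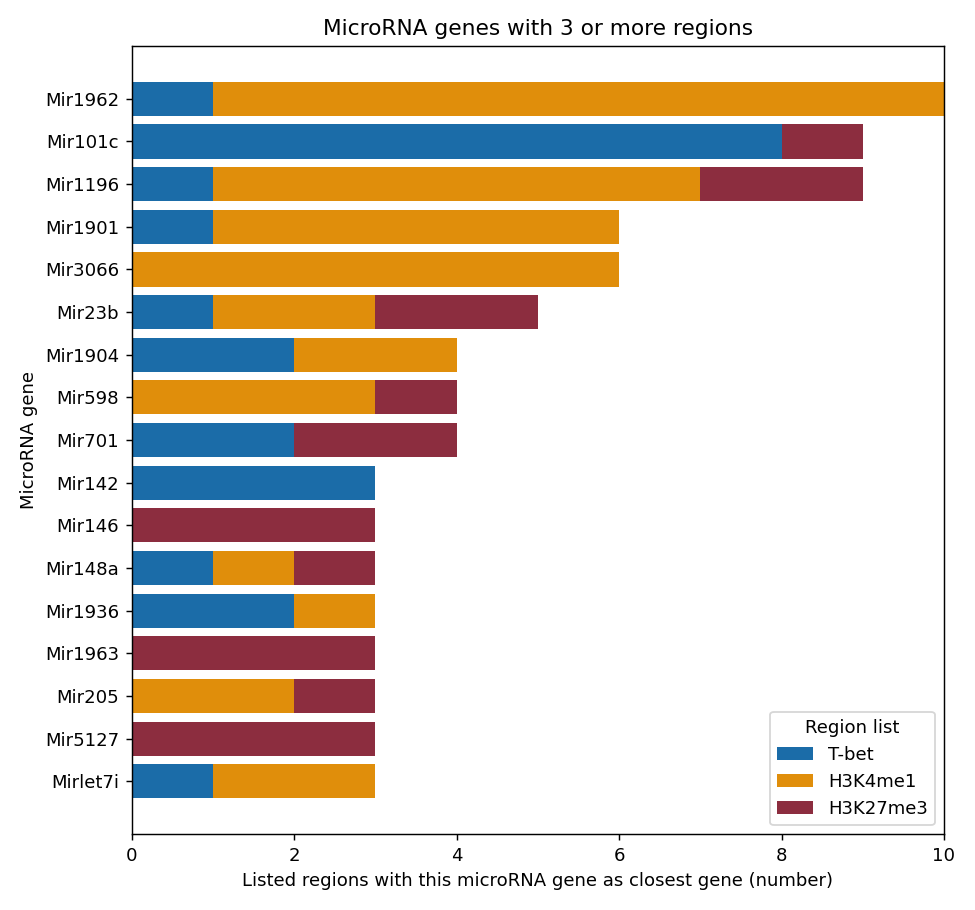
Number of listed regions for the 17 microRNA genes with 3 or more of them over the lists. The horizontal axis counts regions and the colours stand for the T-bet, H3K4me1 and H3K27me3 lists; Mir1962 has 10 regions, of which 9 are H3K4me1, and Mir101c has 9, of which 8 are T-bet peaks.

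Among microRNAs studied in T cells, T-bet peaks were assigned to Mir142, Mir17, Mir23b, Mir148a, Mirlet7g and Mirlet7i. A peak's tags are the sequenced reads counted in it, and its fold enrichment is the caller's ratio to its control; both are the authors' own values and are compared here only within a list. Mir142, a gene used by blood cells, had 3 peaks on chromosome 11 between 87562805 and 87572524. They held 18, 20 and 40 tags with fold enrichments of 1.4, 1.84 and 1.28. The third had more tags than any other member peak outside Mir101c, and its fold enrichment of 1.28 was the lowest outside Mir101c. The 2 Mirlet7g peaks on chromosome 9, at 106079792 to 106080139 and 106084431 to 106084811, held 7 and 11 tags with fold enrichments of 2.07 and 4.34. let-7 microRNAs are known for holding back proliferation and for promoting differentiation.

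The peaks with the highest fold enrichment among the members rested on few tags. They were at Mir206, a muscle microRNA, and Mir504 with a fold enrichment of 6.61 each, at Mir17 and Mirlet7i with 5.51 each, and at Mir676 with 4.96. Each of these 5 peaks held 6 or 7 tags, and the smallest number in the list was 6. The Mir17 peak lay on chromosome 14 at 113842587 to 113842903, and the H3K4me1 region assigned to Mir17 at 115346911 to 115347847. A stretch of 1504007 bp separated them, so the same closest gene does not place them at 1 element.

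By tags, the leading members outside Mir101c and Mir142 were Mir148a with 26, Mir3960 with 22, Mir1966 with 21 and Mir1936 with 20. Mir1936 had a second peak with 8 tags, 24.1 kb from end to end with the first. Mir1904 had 2 peaks with 16 and 8 tags over 81.1 kb, and Mir701 had 2 with 7 and 9 tags. Mir147, the member that was lower in Tbx21-/- cells, had a single peak of 15 tags (chromosome 2, 122477994 to 122478539). Its fold enrichment was 1.87 and its false discovery rate 0.33%, as given by the authors. AA467197 around it had 0 T-bet peaks assigned.

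Over all 46 member peaks the median was 368 bp, 11 tags and a fold enrichment of 2.50. Over the other peaks it was 349 bp, 9 tags and 2.63. Without the 8 peaks at Mir101c the member medians were 9.50 tags and a fold enrichment of 2.76. The false discovery rate was at most 0.93% for every member peak, with a median of 0.27% against 0.28% for the others.

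The H3K4me1 list held more members than either other region list. It gives 1 tag count per region, which is taken here to cover both genotypes. No column says in which of them a region was stronger, so no direction is reported here, nor for H3K27me3. Either histone list may not hold every marked region, so a gene without a listed region may still carry the mark. The member with the most regions was Mir1962, which had 9 regions on chromosome 7 between 142748070 and 142796035. From lower to higher coordinates they held 44, 142, 30, 99, 61, 72, 249, 241 and 64 tags. They summed to 1002 tags, a sum that 14 of 4173 genes on the list reached, Mir1962 included. As many regions or more were found at 60 genes, or 1.44%.

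Mir1962 lies within Ptpre, and the regions assigned to the 2 genes ran on from each other. Ptpre had 3 H3K4me1 regions of 61, 76 and 39 tags starting at 142730319, and all 12 regions together spanned 65.7 kb. The single T-bet peak of Mir1962, at 142780337 to 142780613, had 10 tags and was enriched 3.18-fold. It sat between the sixth and the seventh of its regions, 324 bp after one and 783 bp before the other. Ptpre had 0 T-bet peaks and both genes had 0 H3K27me3 regions assigned. The closest-gene column thus gives 9 of the 12 regions to the microRNA symbol and 3 to Ptpre, the gene that was lower in Tbx21-/- cells.

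**Figure D3:**
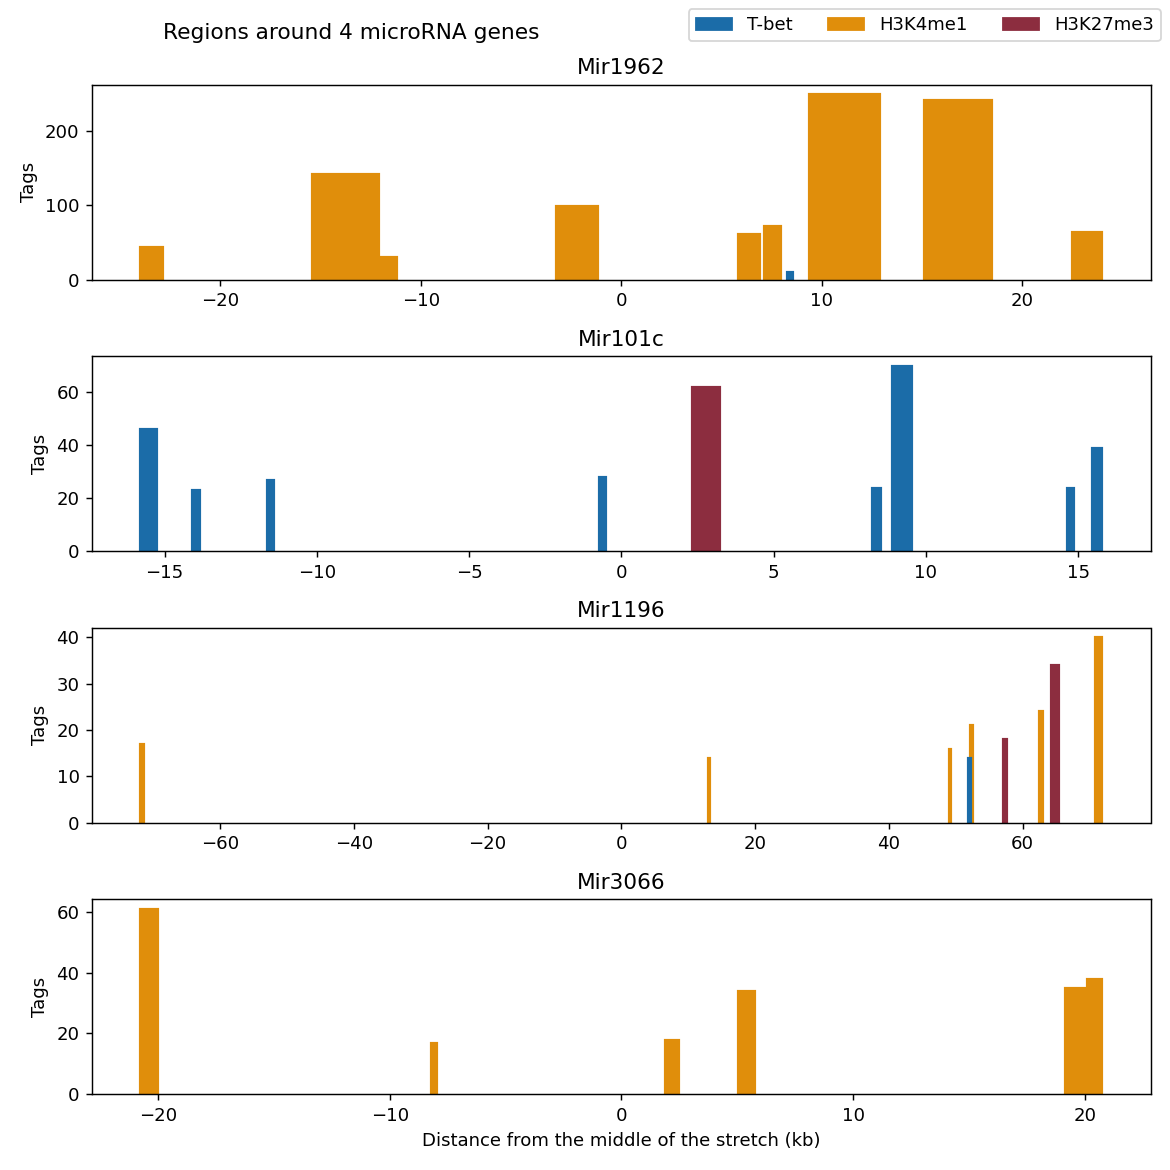
Regions of Mir1962, Mir101c, Mir1196 and Mir3066 along the chromosome. The horizontal axis is the distance in kb from the middle of each stretch, bar height is the tag count, bar width is region length and colour is the list; the T-bet peak of Mir1962 (10 tags) falls in a gap between H3K4me1 regions of 72 and 249 tags, and the Mir101c stretch of 31.6 kb holds 8 T-bet peaks and 1 H3K27me3 region.

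The next largest groups were at Mir3066, Mir1196 and Mir1901. Mir3066, within the ribosome biogenesis gene Nol10, had 6 H3K4me1 regions over 41.5 kb with 61, 17, 18, 34, 35 and 38 tags, and 0 regions of the other lists. Odc1, the rate-limiting enzyme of polyamine synthesis, lay next to it in RefSeq. Mir1196, for which no RefSeq entry was found and so no surrounding gene is given, had 6 H3K4me1 regions over 144 kb with 14 to 40 tags. Mir1901, within the gene Cables1, had 5 over 82.2 kb with 54, 23, 25, 36 and 125 tags. Mir598 had 3 with 40, 12 and 19 tags.

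Single strong regions stood at other members. The region with the most tags was at Mir3075, within Zmiz1, a coactivator gene of Notch1 signalling in T cells, with 324 tags over 3702 bp and a fold enrichment of 2.82. Mir200b, an epithelial microRNA, had 2 regions of 205 and 73 tags, Mir3109 had 2 of 164 and 11, and Mir23b had 2 of 148 and 104. The highest fold enrichments were 17.01 at Mir331, 16.30 at Mirlet7a-1, 14.81 at Mir1196, 14.32 at Mir5130 and 14.11 at Mir214, in regions of 46, 29, 17, 25 and 24 tags.

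A list of microRNAs studied in T cells, of 58 symbols and the let-7 genes, had 21 entries among the members, which are members because they are on a list. Of these, 13 had an H3K4me1 region, 6 a T-bet peak and 8 an H3K27me3 region, and no share is read from them. Mir155 had 1, of 16 tags, at 84698941 to 84699532 of chromosome 16 and enriched 6.14-fold, and 0 T-bet peaks. Mir21, abundant in activated T cells, had 2 regions with 55 and 41 tags. Mir181c had 1 with 99 tags, Mir29b-1 had 1 with 100 tags, Mir212 had 1 with 66 and Mir326, described in mouse Th17 cells, had 1 with 40. The fewest tags were at Mir181b-1 with 8, the smallest number in the list, and at Mir222 with 13, but their fold enrichments of 13.11 and 13.6 were well above the member median. Over all 100 member regions the median was 718 bp, 28 tags and a fold enrichment of 6.46, against 688 bp, 27 tags and 6.93 for the other regions.

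H3K27me3 regions were assigned to 50 members, with 11 to 62 tags each. The median was 19.5 tags against 18 for other regions, and the median fold enrichment was 7.07 against 7.22. Mir146, the gene of miR-146a, had 3 regions on chromosome 11 between 43150497 and 43210595 with 16, 12 and 14 tags and fold enrichments of 7.66, 10.1 and 10.1. It had 0 T-bet peaks and 0 H3K4me1 regions. Mir1963, within the calcium channel gene Ryr1, had 3 regions of 20, 28 and 21 tags over 66.3 kb, and Mir5127 had 3 of 13, 24 and 16 tags over 329 kb. Mir181a-1 had 2 with 11 and 13 tags, Mir181a-2 had 1 with 17, Mir29a had 1 with 19, Mir31 had 1 with 21 and Mirlet7d had 1 with 13.

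The H3K27me3 regions with the most tags were at Mir101c with 62, Mir199b with 50, Mir449c with 49, Mir148a with 48 and Mir5133 with 46. By fold enrichment the leading members were Mir582 with 11.74, Mir2136 with 11.30, Mir181a-1 with 11.10 and Mir674 with 11.06. A fold enrichment of 10.1 came next and was shared by 5 members, Mir146, Mir1963 and Mir23b among them. Those of Mir181a-1 and Mir674 rested on 11 and 27 tags.

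Members on more than 1 region list numbered 27 of 118, or 22.9%, where 29.7% of all listed genes were on at least 2 lists. T-bet peaks and H3K4me1 regions were both assigned, as closest gene and whatever the distance between them, to Mir139, Mir17, Mir1892, Mir1901, Mir1904, Mir1936, Mir1962, Mir1966, Mir214, Mir3075, Mir3967, Mir5104, Mir704 and Mirlet7i. With Mir1196, Mir148a and Mir23b, which were on all 3 lists, these made 17 members, 51.5% of the 33 on the T-bet list and 26.2% of the 65 on the H3K4me1 list. Over all genes the same overlap was 47.5% of the T-bet list and 28.3% of the H3K4me1 list. T-bet and H3K27me3 shared Mir101c, Mir193, Mir365-2, Mir3968 and Mir701, and the 2 histone lists shared Mir205, Mir3089, Mir5130, Mir598 and Mir669h.

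Positions were then compared directly. Of the 46 member peaks, 3 touched an H3K4me1 region by at least 1 bp, or 6.52% (exact 95% interval 1.37 to 17.9), where 9.55% of all T-bet peaks did, a share inside that interval. They were the peaks of Mir148a, Mir1196 and Mir1966. Another 4, at Mir1901, Mir1962, Mir23b and Mir3075, lay within 1 kb of such a region without touching it. All of these belong to the 19 peaks of the 17 members that also had an H3K4me1 region, so 3 of the 19 touched one and 7 touched one or lay within 1 kb. The remaining 27 peaks belong to members with no H3K4me1 region of their own. The median gap from a member peak to the nearest H3K4me1 region was 57.5 kb, and 44.6 kb without Mir101c, against 37.0 kb for other peaks. H3K27me3 regions were touched by 0 of the 46 peaks, with an upper limit of 7.71% by the exact interval, where 0.496% of all T-bet peaks did. The closest pair was at Mir3968, 1517 bp apart.

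**Figure D4:**
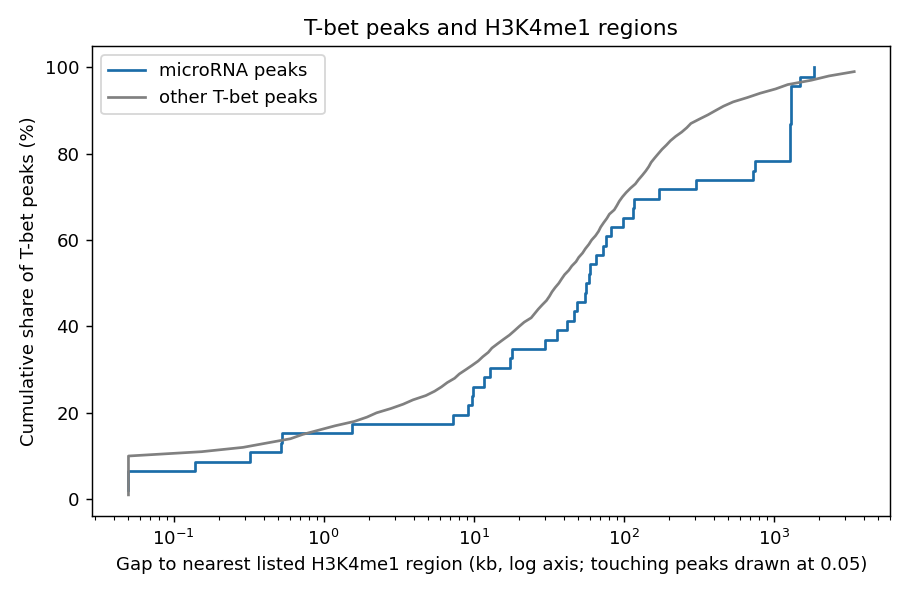
Gap from each T-bet peak to the nearest listed H3K4me1 region. The horizontal axis is the gap in kb on a log axis with touching peaks drawn at the left edge. The vertical axis is the cumulative share of peaks in percent. The lines stand for the 46 microRNA peaks (blue) and all other T-bet peaks (grey), with medians of 57.5 and 37.0 kb. The 8 peaks of Mir101c make the step between 1280 and 1310 kb, and the peaks of Mir17 and Mir504 lie further right.

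At Mir148a all 3 lists had a region, on chromosome 6. The T-bet peak, at 51009728 to 51010413, had 26 tags and was enriched 3.07-fold. The H3K4me1 region at 51010263 to 51011571 (67 tags, enriched 4.72-fold) shared 151 bp with it, or 22.0% of the peak. The H3K27me3 region at 50932549 to 50933715 (48 tags, enriched 5.53-fold) was 76013 bp away. No other H3K4me1 region was listed for 315737 bp on one side and 537669 bp on the other side of the peak.

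The other touching pairs were at Mir1966 and Mir1196. The Mir1966 peak, on chromosome 8 at 108146429 to 108146891, shared 262 bp or 56.6% of its length with an H3K4me1 region of 42 tags. Mir1966 lies within Ripor1. The Mir1196 peak, on chromosome 14 at 62616984 to 62617441, shared 240 bp or 52.4% of its length with a region of 21 tags. Its 9 regions over the 3 lists spanned 144 kb, and an H3K27me3 region of 18 tags lay 4791 bp from the peak. At Mir23b, within Aopep, a peak of 6 tags lay 526 bp before the H3K4me1 region of 148 tags, and H3K27me3 regions of 13 and 14 tags lay within the same 101 kb.

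Neighbouring microRNA genes divided regions among their symbols. In 7 pairs, the members had the same overlapping or flanking coding genes in RefSeq. Mirlet7a-1 had an H3K4me1 region and Mirlet7d an H3K27me3 region within a stretch of 25.3 kb on chromosome 13. Mir29b-1 had an H3K4me1 region and Mir29a an H3K27me3 region within 45.6 kb on chromosome 6. Mir181b-1 had 1 H3K4me1 region and Mir181a-1 had 2 H3K27me3 regions within 263 kb on chromosome 1, between Nr5a2 and Ptprc. Mir193 and Mir365-2 each had 1 T-bet peak and 1 H3K27me3 region, all within 123 kb on chromosome 11. The remaining pairs were Mir199a-2 with Mir214 within Dnm3, Mir23b with Mir3074-1 within Aopep, and Mir1904 with Mir582 within Pde4d, the last with 2 regions on each list over 651 kb.

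Seen by seed, 18 of the 103 members with a mature sequence shared a seed with another of them, in 9 seeds. Members on chromosome 18 were left out of the sequence step, so these counts may be too low. The let-7 seed shown above was carried by Mirlet7a-1, Mirlet7d, Mirlet7g and Mirlet7i, which together had 3 T-bet peaks, at Mirlet7g and Mirlet7i, 3 H3K4me1 regions, at Mirlet7i and Mirlet7a-1, and 1 H3K27me3 region, at Mirlet7d. The miR-181 seed was carried by 4 members with 0 T-bet peaks: the genes of miR-181a had 3 H3K27me3 regions and those of miR-181b and miR-181c had 2 H3K4me1 regions. The miR-148 seed was shared with Mir152, which had 1 H3K4me1 region of 27 tags.

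Regions with many tags over a short length were marked as possible repeats where the tags per kb reached the 99th percentile of the own list. This gave 5 member peaks on the T-bet list, where 1.02% of all peaks were marked, 1 H3K4me1 region (1.00% of all) and 1 H3K27me3 region (1.01% of all). All 5 T-bet peaks and the H3K27me3 region belonged to Mir101c, and the H3K4me1 region to Mir331. The T-bet count depends on the limit: 10 member peaks were marked at the 95th percentile and 0 at one stricter than the 99th.

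Mir101c had 8 T-bet peaks on chromosome 9 between 3000549 and 3032141, the lowest coordinates listed on that chromosome. In order they held 46, 23, 27, 28, 24, 70, 24 and 39 tags over 216 to 680 bp. Their fold enrichments were 0.83, 1.14, 1.02, 0.95, 0.77, 1.38, 1.09 and 0.91, so that 4 of them were at or below 1, where 0.496% of all T-bet peaks were. They held 281 of the 740 tags in member peaks, or 38.0%. The false discovery rates of these peaks were between 0.21% and 0.36%, so that rate does not set them apart from the other member peaks.

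The marked peaks of Mir101c had 96.0 to 129 tags per kb against a limit of 95.5. The 3 peaks just outside had 87.8, 82.9 and 74.5 tags per kb and lie in the same stretch. The H3K27me3 region of Mir101c, at 3018658 to 3019597, held 62 tags over 940 bp, or 66.0 tags per kb against a limit of 58.8, with a fold enrichment of 4.53. It had more tags than any other member region of that list and was the lowest region on chromosome 9 of the H3K27me3 list. No repeat annotation was used, and whether the reads of this stretch come from repeated sequence was not tested.

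The marked region of Mir331, on chromosome 10 at 93447844 to 93448330, had another profile. It held 46 tags over 487 bp, or 94.5 tags per kb against a limit of 87.7, and its fold enrichment of 17.01 was the highest of the member regions on the H3K4me1 list. A second Mir331 region of 22 tags lay beside it. Just under the limit was the region of Mir3075 with 87.5 tags per kb, which at 3702 bp was the longest member region and so had many tags over a wide stretch.

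**Figure D5:**
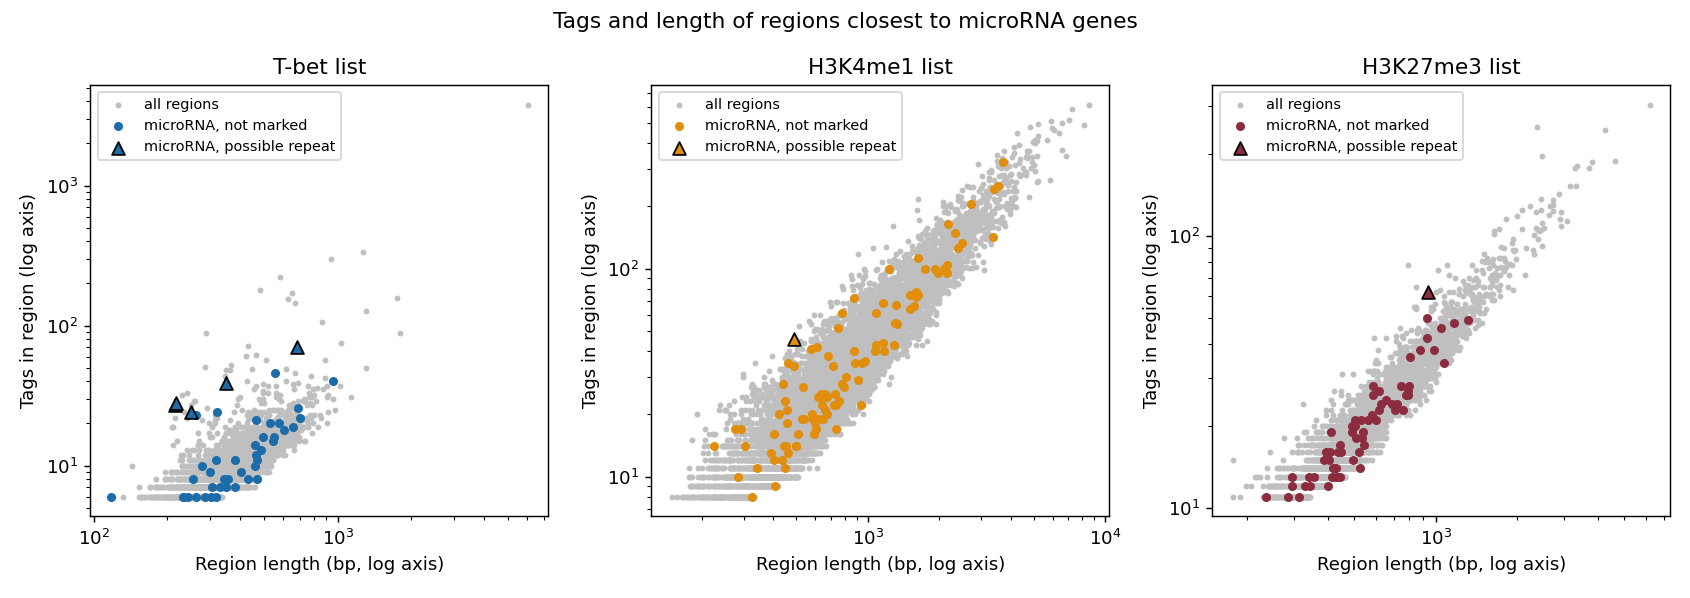
Tags against length for every region of the T-bet, H3K4me1 and H3K27me3 lists. Both axes are logarithmic, with length in bp and tags as a count; grey points are all regions, coloured points are regions closest to microRNA genes and triangles are those marked as possible repeats, of which 5 T-bet peaks and 1 H3K27me3 region belong to Mir101c and 1 H3K4me1 region to Mir331.

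Genes of the microRNA pathway were read from a list of 30 that cut, export, load or destroy microRNAs. On the expression lists 0 of them were found. Of the 30, 2 were closest to a T-bet peak, 6 to an H3K4me1 region and 5 to an H3K27me3 region, against 10.4%, 17.2% and 11.8% of all coding genes, and 20 were closest to no region. Lin28a, which blocks the maturation of let-7, had 1 T-bet peak of 6 tags, at 133597404 to 133597650 of chromosome 4. It lay inside the last of 3 H3K4me1 regions, of 32, 38 and 64 tags. Eif2c2, which codes for the microRNA-loaded protein Argonaute 2, had a T-bet peak of 17 tags with a fold enrichment of 3.46 and an H3K27me3 region of 14 tags. Drosha, the nuclear enzyme that releases the hairpin, had 1 H3K27me3 region of 16 tags with a fold enrichment of 11.1.

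The remaining 57 members met no part of the rule for naming. They had 4 T-bet peaks of 6 to 10 tags, 33 H3K4me1 regions of 9 to 133 tags with fold enrichments of 2.99 to 12.35, and 25 H3K27me3 regions of 11 to 38 tags with fold enrichments of 4.24 to 10.1.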

How the data were processed

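RNA-seq, T-bet ChIP-seq and histone ChIP-seq of wild type and Tbx21-/- Th1 cells were used through 5 lists of the authors. Per the submitters' processing notes, the build was mm9 and the tools were DESeq, TopHat 1.3.3, MACS 1.4.1, Bowtie 0.12.7 and CASAVA 1.7; their roles and order are not stated. Per the file headers, the deposited expression lists give 1 FPKM value per genotype and the authors' log2 ratio. The deposited region lists give, per the file headers, tag counts, a fold enrichment ratio, the closest gene and, for T-bet, a false discovery rate in percent. T-bet was compared with Th1 input, per the labels; which control the histone lists had was not stated. Sequencing depth is unknown. Coordinates are mm9 as deposited, and RefSeq (GRCm38.p6) gave only names, overlapping and flanking genes and sequences.

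Members were found by symbol and described by counts, shares and medians beside those of the whole list. With 1 library per ChIP group, selected regions and combined duplicates, no test was made. Nothing in the labels says that duplicates came from separate mice. RefSeq matches went by symbol (110) or synonym (4) on the same chromosome. Overlaps needed 1 bp. The overlap and percentile steps were run on simulated regions as a check of the code only, which cannot show whether the percentile picks out repeats. Members and lists were chosen with earlier results of these data known. Named were members on an expression list, on several region lists, with 3 or more regions on one, among the 5 highest by tags or fold enrichment, marked as possible repeats, or on a list of microRNAs studied in T cells (58 symbols and the let-7 genes, of which 21 were found). Mir101a, Mir152, Mir1249, Mir1903, Mir199a-2, Mir211, Mir3074-1 and Mir568 are named besides and were chosen after their values were seen. Intervals came from SciPy 1.17.1 and figures from matplotlib 3.10.9, with pandas 2.3.3 and numpy 2.4.6 under Python 3.11.15.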

Additional observations from a re-analysis of the deposited data

How the results depend on the processing

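Over 10 results and 25 alternatives, 20 values stayed close to those reported, 5 of them by construction: leaving out host gene symbols removed no member in any of the 3 lists, and no Mir101c peak was in the 2 touch counts. The share of regions closest to a microRNA gene stayed within its interval in each list with fold enrichment at or above the list median and with regions within 10 kb counted as 1 place. It did so for T-bet also with a false discovery rate of 1% or less, and for T-bet and H3K27me3 without Mir101c, an alternative chosen after seeing the data. Its values ran from 1.18 to 1.47% for T-bet, 1.12 to 1.34% for H3K4me1 and 1.52 to 1.79% for H3K27me3. With a gap of up to 1 kb, 7 in place of 3 member T-bet peaks counted as touching an H3K4me1 region. At the 95th percentile of tags per kb, 10 T-bet, 8 H3K4me1 and 2 H3K27me3 regions were marked as possible repeats, and at a percentile stricter than the 99th 0 T-bet regions were and 1 in each of the other lists; a wider or narrower limit marks more or fewer regions by construction. With a pseudocount of 1, the log2 ratio of the FPKM values was -1.89 for Mir147 and 1.84 for Mir5107. No paired analysis was possible because the lists hold 1 value per genotype and no value per replicate. The T-bet list ends at 6 tags, so peaks with fewer tags cannot be seen.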

Other observations

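Genes around members also had regions of their own. Of the 74 surrounding protein-coding genes 24, or 32.4%, were the closest gene of a listed region, counted by current symbol only. The share of all RefSeq protein-coding genes was 29.0%, counted also by synonym. The counts were made in unlike ways, so the shares are not compared. Trpm1 around Mir211 had 3 T-bet peaks with up to 15 tags and a fold enrichment of up to 8.84, and 2 H3K27me3 regions, while Mir211 itself had 1 H3K27me3 region of 21 tags. Zmiz1 around Mir3075 had 8 H3K4me1 regions with 235 tags over 362 kb, fewer tags than the single Mir3075 region, which held 324. Tigit, an inhibitory receptor gene of T cells, around Mir568 had 1 T-bet peak of 7 tags and 1 H3K4me1 region of 59 tags, and Mir568 had 1 H3K4me1 region of 28 tags. Nrp1 around Mir1903 had 4 H3K27me3 regions over 234 kb, and Mir1903 had 2 more of 12 and 23 tags.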
